A study of Mus musculus with 6 samples.

Results

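Genes of microglia and macrophages were examined in mouse retina 2 days after optic nerve crush (ONC). A list of 37 gene symbols was looked up in the deposited gene tables, and all 37 were found among the 35485 genes listed there. The samples came from wild-type male C57BL/6 mice at 12 weeks of age. In the ONC group the optic nerve was exposed and crushed with forceps 2 mm behind the globe for 10 seconds, and in the sham group it was exposed only. No transgene or other treatment separated the groups. Each group had 3 samples, and each sample was a pool of 6 retinas from different animals. The spread between samples is therefore a spread between pools, and single animals cannot be seen. The comparison asks how transcripts of the resident immune cells stood in the retina early after axonal injury, before most retinal ganglion cells (RGCs, the output neurons whose axons form the optic nerve) are lost.

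Microglia are the resident macrophages of the retina and live mainly in its inner layers. They depend on the receptor Csf1r for survival, and at rest they show surface molecules such as P2ry12, Tmem119, Siglech and Gpr34, called homeostatic here because they can be lost when microglia are activated in disease. Activated microglia and macrophages take up debris through Fc, complement and Trem2 receptors, most of which signal through the adaptors Tyrobp and Fcer1g, and digest it in lysosomes that carry Cd68 and cathepsins. Bulk RNA of the whole retina was measured, so that fewer or more cells of a type and less or more RNA per cell cannot be told apart.

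Exon reads, with an intact read pair counted as 1, numbered 17343945 to 18349331 in the sham pools and 20019818 to 20358008 in the ONC pools. Reads on exons made up 70.9% to 76.6% of the reads on genes in the sham pools and 78.5% to 80.4% in the ONC pools. Gnat1, which encodes the transducin subunit of rods, had 293184 to 365976 exon reads per pool, and the rod genes Sag, Nr2e3 and Pde6b had an adjusted p under 0.1 with higher values in ONC but no fold change above 1.5. Of 7 RGC markers, 6 had an adjusted p under 0.1 with lower values in the ONC pools, and 5 of these passed the fold change threshold, while the seventh, Slc17a6, was higher in ONC (log2 fold change 0.26, adjusted p = 0.0525). The members were rare transcripts against this background: their 37 genes together had 1606 to 3025 exon reads per pool. Only 3 of them had over 100 exon reads in every pool, and 16 had a median under 30. Within groups, the reads of a member scattered with a median chi-square of 4.12 per degree of freedom, where 1 is the scatter of counting alone.

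Many genes of macrophages are transcribed under the control of the myeloid transcription factor PU.1. It binds a purine-rich sequence whose core is known as the PU box. The 250 bases before the annotated start of transcription were therefore searched for the letters GAGGAA on either strand (TTCCTC on the other), using RefSeq start sites on GRCm38.p6. A window was found for 29 of the 37 members. At least 1 match was present in 13 of these 29 genes (44.8%), against 25.9% of the 27025 genes with a window. The longer form GAGGAAGT (ACTTCCTC on the other strand) was present in 2 of the 29, Inpp5d and Vav1, or 6.9%, against 2.79% of all genes. The windows of the members with an adjusted p under 0.1 that held a match are shown here because these 3 genes rose after ONC. They run 5′ to 3′ towards the start of the gene, in lower case with each match in capitals. They lie at chr7:128062390-128062639 (plus strand, Itgam), chr3:95526536-95526785 (plus strand, Ctss) and chr11:69666171-69666420 (minus strand, Cd68), and none of the 3 overlapped another RefSeq gene.
Itgam: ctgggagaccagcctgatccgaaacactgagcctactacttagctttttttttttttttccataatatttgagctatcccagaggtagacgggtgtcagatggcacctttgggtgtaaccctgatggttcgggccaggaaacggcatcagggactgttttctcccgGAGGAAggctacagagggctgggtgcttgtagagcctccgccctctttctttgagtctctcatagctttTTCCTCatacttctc
Ctss: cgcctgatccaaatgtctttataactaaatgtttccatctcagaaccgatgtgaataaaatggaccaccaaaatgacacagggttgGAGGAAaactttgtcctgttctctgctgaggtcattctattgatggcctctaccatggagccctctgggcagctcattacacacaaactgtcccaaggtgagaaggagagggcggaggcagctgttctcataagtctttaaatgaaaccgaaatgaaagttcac
Cd68: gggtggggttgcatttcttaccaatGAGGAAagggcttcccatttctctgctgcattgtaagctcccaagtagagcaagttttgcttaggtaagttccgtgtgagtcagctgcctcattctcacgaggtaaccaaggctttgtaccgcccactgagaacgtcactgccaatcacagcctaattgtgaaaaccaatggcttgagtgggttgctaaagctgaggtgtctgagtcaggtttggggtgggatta
Itgam held a match on each strand, starting 84 and 15 bases before the start site. The matches of Ctss and Cd68 started 164 and 225 bases before it. The windows of Tlr2 and Lcp1, which also rose, held no match, nor did those of the homeostatic genes P2ry12 and Siglech. No window was available for the homeostatic genes Tmem119 and Gpr34 or for Chi3l3, so these were not searched. A match is a string of letters and was not tested as a binding site.

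After ONC, transcripts of the innate receptor Tlr2, the actin-bundling protein Lcp1, the integrin chain Itgam, the lysosomal protein Cd68 and the protease Ctss were higher than after sham, by log2 fold changes of 0.49 (Ctss) to 2.27 (Tlr2). Chi3l3 was also called but was high in 1 pool only. The homeostatic genes P2ry12, Tmem119 and Siglech did not pass the test in either direction, and nearly all other members had positive estimates that did not pass. ONC and sham were compared with edgeR's quasi-likelihood test on total exon reads over 13670 genes whose mean RPKM exceeded 0.3 in either group. RPKM is the number of exon reads scaled to the exon length of the gene and to the reads on genes in the pool. Of the 37 members, 30 passed this filter. In 6 of the 30 (P2ry12, Fcgr1, Cyth4, Lcp1, Tlr2 and Chi3l3) only the ONC mean lay above 0.3, so these could enter only through the group in which they were higher. The adjusted p was under 0.1 in 6 of the 30: Tlr2, Lcp1, Itgam, Cd68, Chi3l3 and Ctss. All 6 were higher in ONC, and 2.38% of all genes tested were called in that direction. Of these 6, all except Ctss (5 genes) also had a fold change above 1.5 and were counted as differentially expressed genes (DEGs), against 0.827% of all genes tested called DEGs with higher values in ONC. Chi3l3 rested on a single pool, and 4 DEGs were left without it. With no filter on RPKM, all 37 members could be tested among 17655 genes: 8 (21.6%) then had an adjusted p under 0.1 and higher values in ONC, against 2.74% of all genes, the 2 additions being Csf1r and Tyrobp. In that fit 35 of the 37 members had a log2 fold change above 0 and 2, Aif1 and Vav1, below 0. Their median was 0.50, and that of all genes 0.01. Between the pools themselves, 12 of the 37 members (32.4%) had every ONC value above every sham value in normalized exon reads, and none had every ONC value below. Of the genes with an exon read, 9.37% had every ONC value above every sham value.

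**Figure D1:**
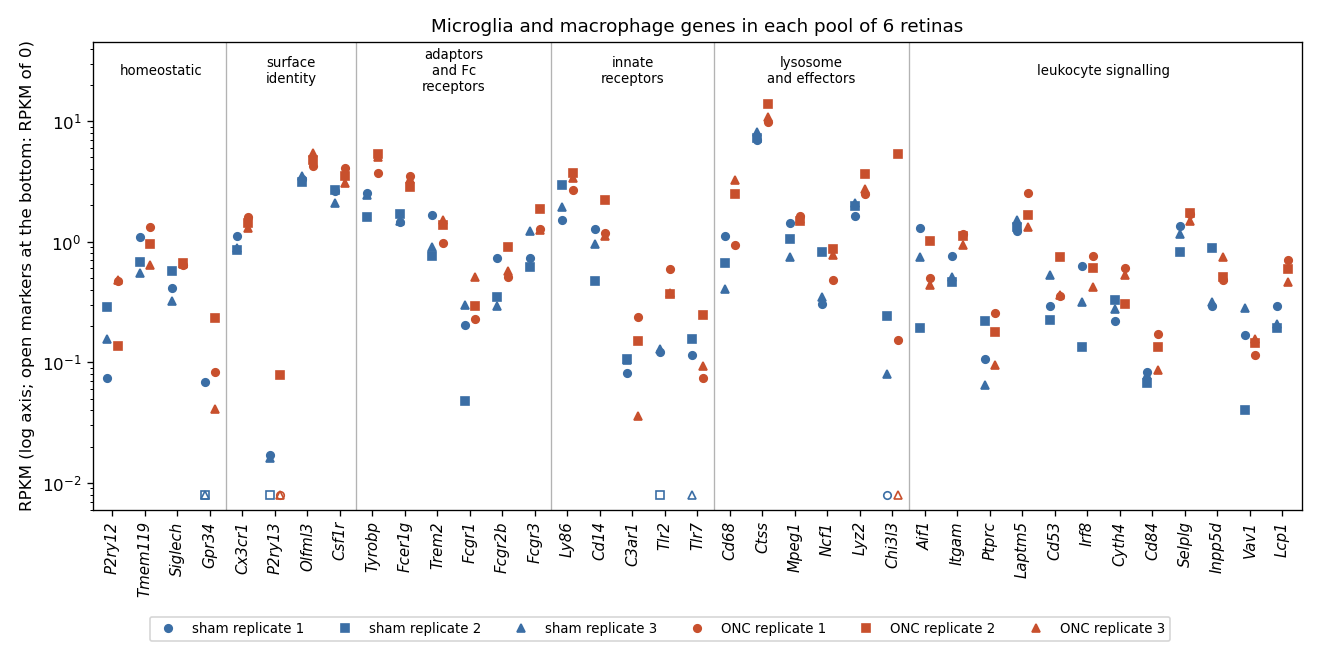
RPKM (log axis) of the 37 members in the 3 sham pools (blue) and 3 ONC pools (orange), 1 marker per pool and replicate number, grouped by role, with values of 0 drawn as open markers at the bottom. Ctss had the highest RPKM of the members in the sham pools, at 7.02 to 8.18, and Chi3l3 reached 5.30 in ONC replicate 2 but at most 0.244 in the other pools.

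The homeostatic genes came first in the rule for this list. P2ry12, the ADP receptor that steers microglial processes to damage, had 4, 16 and 9 exon reads in sham replicates 1 to 3 and 28, 8 and 29 in ONC replicates 1 to 3. ONC replicate 2 lay within the sham range, so the groups overlapped. The log2 fold change was 0.95 (95% confidence interval -0.37 to 2.26, adjusted p = 0.478 by edgeR's quasi-likelihood test). P2ry12 and P2ry13 lie within the span of Med12l, a gene with 556 to 690 exon reads per pool, and only 54.3% of the reads of P2ry12 and 57.1% of those of P2ry13 mapped uniquely, so both are uncertain.

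Tmem119, a membrane protein that marks microglia among the macrophages of neural tissue, had 52, 34 and 28 exon reads in the sham pools and 70, 50 and 35 in the ONC pools. The groups overlapped, and the log2 fold change was 0.23 (interval -0.54 to 1.01, adjusted p = 0.804). Without ONC replicate 1 it was -0.07. Siglech, a sialic acid-binding receptor, had 23, 33 and 19 reads in the sham pools and 39, 40 and 41 in the ONC pools. Each ONC pool lay above each sham pool, but the log2 fold change of 0.47 did not pass the test (interval -0.36 to 1.29, adjusted p = 0.594). Gpr34, a receptor for lysophosphatidylserine, had 3, 0 and 0 reads in the sham pools and 4, 11 and 2 in the ONC pools. It was too rare to be tested, 70.0% of its reads were unique, and its span lies within that of Cask.

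None of the 4 homeostatic genes was called in either direction, and the mean of each was higher in the ONC pools. Their summed level was 4.70, 4.56 and 3.30 CPM (exon reads per 1000000 of the TMM-adjusted library size) in the sham pools and 7.12, 5.32 and 5.15 in the ONC pools, a mean of 4.19 ± 0.772 (SD, n = 3) against 5.86 ± 1.09 (SD, n = 3). The pools of the groups did not overlap in this sum. No homeostatic gene fell by the test, but the intervals of P2ry12, Tmem119 and Siglech reached down to log2 fold changes of -0.37, -0.54 and -0.36.

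Phagocytic and activation genes were described as a list of 14 members. It held Tyrobp, Fcer1g, Trem2, Fcgr1, Fcgr2b, Fcgr3, Cd14, Tlr2, C3ar1, Itgam, Cd68, Ctss, Lyz2 and Chi3l3. Lcp1, Mpeg1, Ncf1 and Ly86 were not in it, so the medians below depend on this choice. Of the 14, all except C3ar1 (13 genes) were tested. Of these 13, 5 had an adjusted p under 0.1 with higher values in ONC (Tlr2, Itgam, Cd68, Ctss and Chi3l3) and none was lower, where 2.38% of all genes tested were called higher. Tlr2, Chi3l3 and Fcgr1 had passed the filter through the ONC group only, as had P2ry12 of the homeostatic genes. These genes enter the medians that follow, so the filter can raise both. The median log2 fold change was 0.76, against 0.47 for the 3 homeostatic genes tested and 0.01 for all genes tested. Without sham replicate 2 this order turned, with 0.51 for the activation genes and 0.69 for the homeostatic genes. With no filter the medians over all 14 and all 4 genes were 0.69 and 0.71, the latter raised by Gpr34 with its few reads. Leaving Chi3l3 out, the summed level of the other 13 was 33.5, 26.8 and 35.4 CPM in the sham pools and 45.2, 56.6 and 48.5 in the ONC pools, a ratio of the means of 1.57, against 1.40 for the homeostatic sum. The activation sum divided by the homeostatic sum was 7.13, 5.87 and 10.8 in the sham pools and 6.35, 10.6 and 9.42 in the ONC pools. These ratios overlapped, so that a shift in the balance of the lists could not be told from the spread between pools.

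**Figure D2:**
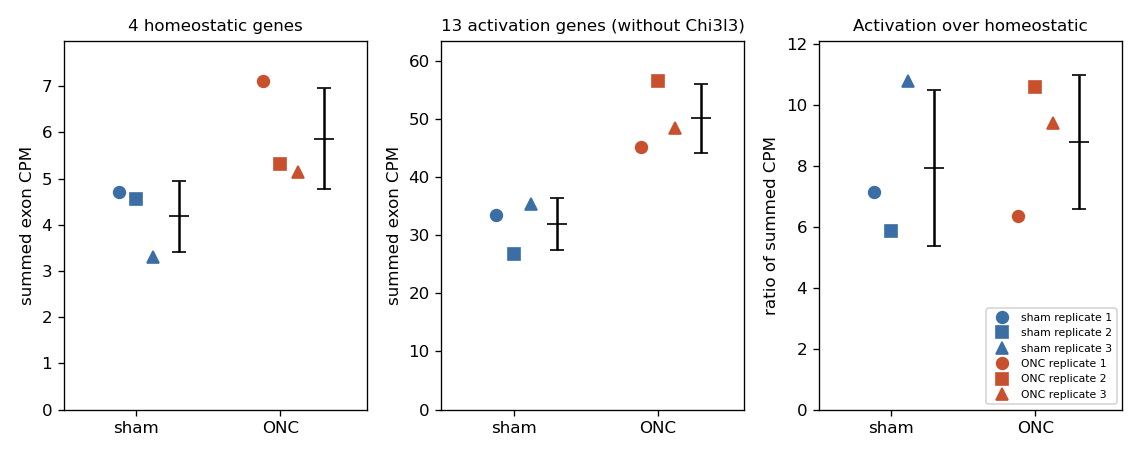
Summed exon CPM of the 4 homeostatic genes and of the 13 activation genes without Chi3l3, and the ratio of the activation sum to the homeostatic sum, in each pool (markers), with the mean and SD of each group (black, n = 3). Both sums were higher in all 3 ONC pools than in all 3 sham pools, while their ratio ranged from 5.87 to 10.8 in sham and from 6.35 to 10.6 in ONC.

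The next 4 members mark the resident cells through their surface or secreted products. Cx3cr1, the receptor for the neuronal chemokine Cx3cl1, had 76 to 95 exon reads in the sham pools and 126 to 152 in the ONC pools (log2 fold change 0.49, adjusted p = 0.240). Csf1r had 199 to 250 and 310 to 403 reads (0.41, adjusted p = 0.134), and Olfml3, a secreted glycoprotein, 131 to 149 and 188 to 245 (0.42, adjusted p = 0.202). In all 3 genes every ONC pool lay above every sham pool, and in all 3 the 95% interval of the single gene lay above 0, but adjusted over all genes tested they did not pass. P2ry13, a second ADP receptor, had 1, 0 and 1 reads in the sham pools and 0, 5 and 0 in the ONC pools and was the only member with at most 10 reads in every pool.

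The adaptors Tyrobp and Fcer1g, which carry the activating signal of Trem2 and of Fc receptors into the cell, had similar values in the pools, and neither passed edgeR's test. Tyrobp had 33, 22 and 34 exon reads in the sham pools and 53, 75 and 75 in the ONC pools (log2 fold change 0.96, interval 0.26 to 1.67, adjusted p = 0.131). Fcer1g had 22, 27 and 24 against 58, 47 and 57 reads (0.93, interval 0.18 to 1.69, adjusted p = 0.183), and in RPKM its means were 1.55 ± 0.140 in sham and 3.23 ± 0.321 in ONC (SD, n = 3). Neither gene had a sham pool as high as its lowest ONC pool. With limma on log2(RPKM + 1) both passed, with adjusted p of 0.0215 for Tyrobp and 0.00396 for Fcer1g. In that fit, however, the median log2 fold change of all genes was 0.11, against 0.01 in edgeR's fit. Of its 147 DEGs among all genes, 113 were higher in ONC. Trem2, the lipid-sensing receptor that pairs with Tyrobp, had 42, 20 and 24 reads in the sham pools and 27, 37 and 43 in the ONC pools, which overlapped widely (log2 fold change 0.09, interval -0.78 to 0.97, adjusted p = 0.939). The difference between Trem2 and the adaptors was not tested. The Fc receptors, which bind antibody-coated material, had log2 fold changes of 0.76 (Fcgr1, high affinity), 0.42 (Fcgr2b, the inhibitory receptor) and 0.62 (Fcgr3), with adjusted p of 0.565, 0.721 and 0.453, and all 3 overlapped between groups. Of the 20 genes listed for signalling downstream of these adaptors, 10 were tested and 1 rose, where 2.38% of all genes tested were called higher. This was Dok3, an adaptor that restrains such signals, with 71 to 81 exon reads in the sham pools and 132 to 147 in the ONC pools (log2 fold change 0.69, adjusted p = 0.0754). Of the 10, 5 lay above 0 and 5 below, with a median of 0.14. Vav3 had an interval below 0 without passing (log2 fold change -0.28, interval -0.52 to -0.03, adjusted p = 0.231). The kinase Syk, which the adaptors recruit, was too rare to be tested at 5 to 28 reads per pool.

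Tlr2, the receptor for bacterial lipoproteins and for products of damaged tissue, had the largest rise of the members that did not rest on a single pool. It had 8, 0 and 9 exon reads in the sham pools and 43, 26 and 28 in the ONC pools. Every ONC pool lay well above the highest sham pool, and the log2 fold change was 2.27 (SE 0.67, interval 0.88 to 3.66, adjusted p = 0.0651). The gene lies at chr3:83836272-83841608. Of the other innate receptors, Cd14, the co-receptor for bacterial lipopolysaccharide, had a log2 fold change of 0.60 and Ly86, which binds the receptor-like protein Cd180, of 0.49, with adjusted p of 0.481 and 0.428. The complement receptor C3ar1, with 8 to 11 exon reads in sham and 4 to 26 in ONC, and the RNA sensor Tlr7, with 0 to 14 and 7 to 23, were not tested, and both overlapped.

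Among lysosomal and effector genes, Ctss, a cysteine protease of antigen-presenting cells, had the highest level per length. Its RPKM was 7.02, 7.25 and 8.18 in the sham pools and 9.84, 13.9 and 10.9 in the ONC pools. The groups did not overlap, and the log2 fold change in exon reads was 0.49 (SE 0.14, interval 0.19 to 0.80, adjusted p = 0.0628), below the fold change threshold of 1.5 for a DEG. Cd68, a heavily glycosylated protein of the lysosomal membrane and a common marker of phagocytic cells, had 26, 16 and 10 exon reads in the sham pools and 24, 63 and 85 in the ONC pools. ONC replicate 1 lay below sham replicate 1 in reads, so the groups overlapped and the rise came from ONC replicates 2 and 3 (fold change 2.82, log2 interval 0.50 to 2.49, adjusted p = 0.0912). Lyz2, the lysozyme of myeloid cells, had 40 to 54 and 67 to 96 reads (0.51, adjusted p = 0.391). Mpeg1, a pore-forming protein, and Ncf1, a subunit of the phagocyte oxidase, had log2 fold changes of 0.43 and 0.41 with adjusted p of 0.304 and 0.671.

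Chi3l3, a secreted chitinase-like protein known from alternatively activated macrophages and also made by monocytes and neutrophils, stood apart. It had 0, 9 and 3 exon reads in the sham pools and 6, 203 and 0 in the ONC pools. Only ONC replicate 2 was high, and the other 2 ONC pools lay within the sham range. The fitted log2 fold change of 3.87 (SE 1.21, interval 1.33 to 6.41, adjusted p = 0.0871) therefore describes 1 pool, and without ONC replicate 2 the gene no longer passed the filter. With no filter on RPKM its adjusted p was 6.88e-11, and DESeq2 gave it none. The same pool had the most reads of the neutrophil genes S100a8 (43, against 0 to 23 in the others), S100a9 (54, against 7 to 35) and Retnlg (15, against 0 to 10). These 3 of 9 neutrophil markers were picked out after their values were seen. Of the others, Camp was highest in ONC replicate 1 (10 reads, against 4 in ONC replicate 2), Cxcr2 had 0 reads in all ONC pools and 2 to 4 in the sham pools, and Ly6g, Ngp, Mpo and Elane had 0 reads in ONC replicate 2. The part of neutrophil transcripts in the value of Chi3l3 was not tested.

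The remaining members carry out leukocyte signalling and cell movement. Itgam, the alpha chain of the complement receptor CD11b/CD18, had 82, 52 and 58 exon reads in the sham pools and 136, 129 and 114 in the ONC pools. The groups did not overlap, and the log2 fold change was 0.76 (SE 0.24, interval 0.26 to 1.27, adjusted p = 0.0903). Lcp1, an actin-bundling protein of leukocytes, had 29, 20 and 22 reads in the sham pools and 78, 64 and 52 in the ONC pools, again without overlap (log2 fold change 1.23, SE 0.36, interval 0.49 to 1.98, adjusted p = 0.0613). Aif1, which encodes the widely used microglial antigen Iba1, was the only tested member with a log2 fold change below 0, with 26, 4 and 16 reads in the sham pools and 11, 22 and 10 in the ONC pools (-0.32, interval -1.65 to 1.01, adjusted p = 0.845). Its direction was not fixed by these pools, since without sham replicate 1 the value was 0.28. Selplg, the P-selectin ligand, had 51 to 81 and 100 to 113 reads without overlap (0.43, adjusted p = 0.40). The lysosomal protein Laptm5, the tetraspanin Cd53, the transcription factor Irf8, the exchange factor Cyth4 and the lipid phosphatase Inpp5d had log2 fold changes of 0.31, 0.33, 0.62, 0.68 and 0.10, and their groups overlapped. The pan-leukocyte phosphatase Ptprc (CD45), with 9 to 30 exon reads in sham and 14 to 37 in ONC, the adhesion receptor Cd84, with 10 to 12 and 14 to 27, and the exchange factor Vav1, with 4 to 29 and 12 to 17, were not tested.

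**Figure D3:**
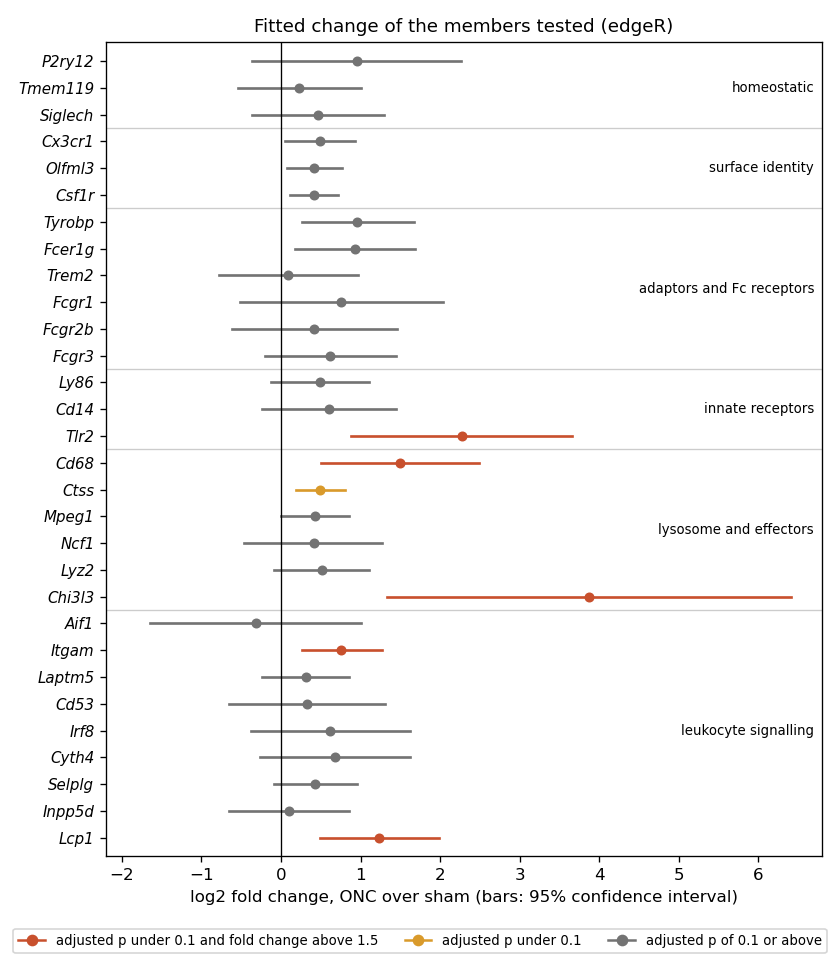
Log2 fold change (ONC over sham) of the 30 members tested by edgeR, with 95% confidence intervals, grouped by role. The 5 DEGs (red) and Ctss (yellow) lie above 0 with their intervals, 5 further intervals lie above 0 without passing the adjusted threshold (grey), and Aif1 alone has its estimate below 0.

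The pools differed among themselves in which members they held most of. ONC replicate 1 had the highest normalized level of 16 members, among them Cx3cr1, Csf1r, Tmem119, Itgam, Lcp1 and Tlr2. ONC replicate 2 was highest in 12, among them Ctss, Tyrobp, Lyz2, Cd14 and all of the excess of Chi3l3. ONC replicate 3 was highest in 4, Siglech, Olfml3, Cd68 and Fcgr1, and a sham pool in the remaining 5. Sham replicate 2 was the lowest pool for 18 members. All 37 members together summed to 96.7, 89.6 and 94.6 CPM in the sham pools and 136, 148 and 125 in the ONC pools, a ratio of the means of 1.45, or 1.42 without Chi3l3. On this sum the groups were apart by more than the range within either.

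Each of the 6 members with an adjusted p under 0.1 passed in 1 to 3 of the fits that left out a pool. With sham replicate 2 left out no member had an adjusted p under 0.1, and the same held with ONC replicate 2 left out, while 154 and 158 DEGs were still called among all genes. With sham replicate 3 left out only Ctss passed, with ONC replicate 3 left out Lcp1 and Chi3l3, and with sham replicate 1 left out Itgam, Cd68 and Lcp1. Without ONC replicate 1, 7 members passed: Cd68, Ctss, Lcp1, Tlr2, Chi3l3, Olfml3 and Tyrobp. In each of these fits 26 to 29 of the 29 or 30 members tested lay above 0. At an adjusted p under 0.05 no member was called a DEG by edgeR, although 11 of the 30 had an unadjusted p under 0.05 with higher values in ONC, as did 7.73% of all genes tested.

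**Figure D4:**
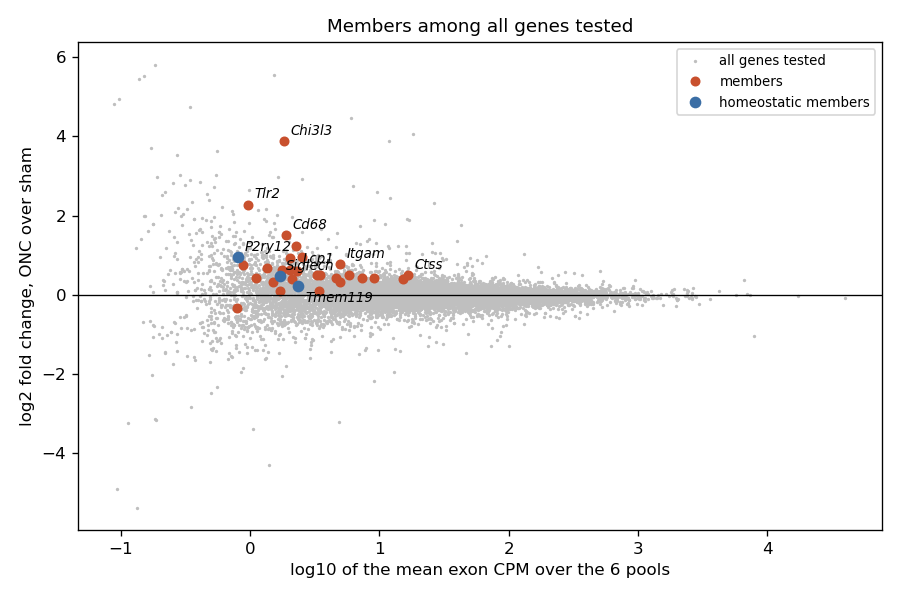
Log2 fold change (ONC over sham) against the log10 of the mean exon CPM for all 13670 genes tested (grey), the 30 members tested (orange) and the homeostatic members among them (blue). The members sit at low to middle levels, 29 of 30 above 0, with Tlr2 at 2.27 and Chi3l3 at 3.87 farthest from it.

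Reads on introns gave a separate readout of the same genes, taken as reads on the whole gene minus reads on exons. Among 13391 genes with enough intron reads, 8 members could be tested, and 7 of these lay above 0. No member was called (adjusted p under 0.1 and fold change above 1.5) by edgeR's quasi-likelihood test, where 2.61% of all genes were called, in either direction. None of the 8 members had an unadjusted p under 0.05 in that test. Of the genes that rose on exons, Ctss had 9 to 11 intron reads in the sham pools and 5, 36 and 21 in the ONC pools (log2 fold change 1.07, interval -0.38 to 2.52), and Itgam had 2 to 15 and 2 to 11 (0.16, interval -1.75 to 2.07). Both overlapped between groups, and at this depth a change of the size seen on exons was not detectable on introns.

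Genes around the members were examined in lists of their own. All 3 genes of the complement component C1q, which microglia produce and which tags cells for removal, rose: C1qb had 105 to 130 exon reads in the sham pools and 233 to 266 in the ONC pools (log2 fold change 0.81, adjusted p = 0.00633), and C1qa and C1qc rose by 0.59 and 0.57 (adjusted p = 0.0931 for both). Of 25 genes known from microglia in disease, 21 were tested and 6 rose, none fell, where 2.38% of all genes tested were called higher: Lgals3, a sugar-binding protein, from 10 to 22 reads in sham to 59 to 81 in ONC (log2 fold change 1.96, adjusted p = 0.00576), Spp1 by 0.67, Gpnmb by 0.61, Cd9 by 0.36, Cd63 by 0.33 and Ctsl by 0.33. Retinal cells other than microglia also express several of these. Cst7 and Itgax, which are more restricted to activated microglia, had 1 to 7 and 0 to 9 reads per pool and were not tested. Clec7a, also of this list, had 4 to 6 reads in sham and 12 to 26 in ONC, without overlap. It did not pass (log2 fold change 1.59, interval 0.22 to 2.95, adjusted p = 0.216). It had entered the test through its ONC mean RPKM of 0.307 only (0.0927 in sham). Of the 21 genes tested, 19 lay above 0 and 2 below. Of 10 ligands and signals to microglia none passed the test: Csf1, a ligand of Csf1r, had 80 to 101 and 114 to 180 reads (0.50, adjusted p = 0.248) and Il34, the other ligand, 107 to 158 and 127 to 135 (-0.27, adjusted p = 0.521).

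Markers of other cells that carry some of the member transcripts were measured in the same pools. Of 9 genes of blood monocytes, Ccr2, their defining chemokine receptor, had 0 exon reads in all 6 pools, which allows up to 0.147 to 0.173 CPM per pool (3 reads, counting error only), and Ly6c2 had at most 1. The summed level of the 9 was 32.6 to 39.6 CPM in the sham pools and 37.4 to 42.1 in the ONC pools, most of it from Nr4a1, which other cells also express, and Chi3l3 was the only gene of the list that passed the test. Of 9 neutrophil genes, Ngp, Mpo and Elane had 0 reads in every pool and Ly6g at most 1, and the sum was 1.59 to 3.41 CPM in sham and 0.870 to 5.66 in ONC. Of 10 lymphocyte genes none could be tested, 4 had no read in any pool (Cd3g, Cd3d, Gzma and Ms4a1), and the sum was at most 0.610 CPM in any pool. Of 8 genes of perivascular macrophages only Lyve1 and Pf4 could be tested, and neither passed. Mrc1 had 1 to 14 reads and Cd163 0 to 5, without separation of the groups. F13a1 had 5, 0 and 2 reads in the sham pools and 11, 14 and 12 in the ONC pools, without overlap, Pf4 had 1, 0 and 2 against 0, 15 and 7 (log2 fold change 2.52, interval -0.19 to 5.23, adjusted p = 0.339), and Ms4a7 had 0, 0 and 5 against 8, 4 and 5. Their part in the members' values was not tested. The sums, most of which came from Lyve1 (194 to 302 reads), were 14.7 to 19.6 CPM in sham and 16.7 to 18.6 in ONC. Of 8 genes of dendritic cells and antigen presentation none passed, with sums of 8.74 to 12.5 and 10.1 to 10.6 CPM. Of these, 6 were tested, 3 above 0 and 3 below. H2-Eb1 had 9, 4 and 3 reads in the sham pools and 19, 21 and 14 in the ONC pools, without overlap (log2 fold change 1.52, interval 0.16 to 2.88, adjusted p = 0.234). It had entered the test through its ONC mean RPKM of 0.426 only (0.136 in sham). Cd74 had a log2 fold change of 0.97 and H2-Aa of -0.89 (adjusted p = 0.375 and 0.582). The hemoglobin genes Hba-a1 and Hba-a2 fell by 0.99 and 1.24 on the log2 scale (adjusted p = 0.00512 and 0.00112). Both share reads with near-identical copies, and 28.7% and 29.5% of their reads were unique. The sum of the 6 blood genes was 97.9 to 196 CPM in the sham pools and 56.4 to 79.1 in the ONC pools, so that these genes moved with the group, in the direction opposite to the members. Their part in the members' values was not tested. None of 8 Müller glia genes and none of 6 endothelial genes passed. Of the Müller glia genes, 4 lay above 0 and 4 below. The intervals of Gfap (log2 fold change 0.36, interval 0.10 to 0.62, adjusted p = 0.126) and Vim (0.18, interval 0.06 to 0.31, adjusted p = 0.112) lay above 0. That of Glul lay below 0 (-0.13, interval -0.25 to -0.02, adjusted p = 0.206).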

How the data were processed

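RNA-seq of whole retinas was analysed from 3 ONC and 3 sham pools, grouped by the treatment in the sample labels. The authors mapped paired reads of 100 bp with CLC Genomics Workbench 6.0.1 (up to 2 mismatches) and deposited unnormalized read counts for each gene, over its exons and over its full span, total and unique. The authors also deposited RPKM, that is exon reads per kilobase divided by all reads on genes, introns included. The paper names NCBI37/mm9, but gene starts in the files lay within 5 kb of RefSeq GRCm38.p6 starts for 96.25% of 29908 shared symbols, and 36 of 36 members found there overlapped. The reads were not analysed here.

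Exon counts were fitted with edgeR 4.0.16 (TMM, glmQLFit, glmQLFTest; R 4.3.3); the model held the condition alone. P-values were adjusted by Benjamini-Hochberg over every gene whose mean RPKM exceeded 0.3 in sham or ONC. All adjusted p in the text come from this fit unless another is named. Intron counts were fitted in the same way after filterByExpr. Standard errors are the log2 fold change divided by the square root of the F statistic. Mean ± SD is over 3 pools. Intervals and count floors cover counting or fitted error only. Pools came from separate animals. The test was checked on simulated data with known changes. That simulation drew every gene at the same common dispersion, so it did not reproduce differences in scatter between genes. Changes were not planted in the rarest genes. How the test performs on rare, widely scattered members was therefore not checked.

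Alternatives were DESeq2 1.42.0, limma 3.58.1 on log2 RPKM plus 0.1 or 1, other scalings, filters, read classes and thresholds, a replicate block, and each pool left out. All members are accounted for. Values per pool are given for members with an adjusted p under 0.1, the 4 homeostatic genes and members with at most 10 reads, and for Tyrobp, Fcer1g, Trem2 and Aif1, which were added after their values were seen, as were the genes of other lists named without an adjusted p under 0.1. The members and lists were chosen with earlier results of these data known. Columns of group means in the files were not used.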

Additional observations from a re-analysis of the deposited data

How the results depend on the processing

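Over 12 other settings of the exon fit, every tested member kept its direction except Aif1, which was 0.02 with limma on log2(RPKM + 0.1). Leaving out a pool turned 6 members: Tmem119 ranged from -0.07 to 0.53, Aif1 from -0.78 to 0.28, Trem2 from -0.13 to 0.47, Laptm5 from -0.02 to 0.50, Cd53 from -0.10 to 0.81 and Inpp5d from -0.19 to 0.78. The 5 DEGs among members became 9 with the scaling of RPKM (division by all reads on genes), 2 with limma and a pseudocount of 0.1 (Lcp1 and Fcer1g, the latter not among the 5), 2 with limma and a pseudocount of 1 (Tyrobp and Fcer1g, neither among the 5), 2 with a mean RPKM above 1, and 0 at an adjusted p under 0.05 or with glmTreat against a fold change of 1.5, and ranged from 0 to 5 without 1 pool. The 6 members with an adjusted p under 0.1 became 11 with the scaling of RPKM, 2 with limma and a pseudocount of 0.1, 8 with a pseudocount of 1, 3 with a mean RPKM above 1, and 0 to 7 without 1 pool. With a mean RPKM above 1 only 17 members were tested. Lcp1 and Tlr2, with ONC mean RPKM of 0.589 and 0.446, were removed by that filter and not by the test. The scaling of RPKM moved the median of all genes by 0.12, while the members' median went from 0.49 to 0.62. The limma fits moved the median of all genes by 0.12 (pseudocount of 0.1) and 0.1 (pseudocount of 1). With all 6 pools kept, Fcer1g had an adjusted p under 0.1 in 3 settings (the scaling of RPKM and both limma fits) and Tyrobp in 3 (the scaling of RPKM, limma with a pseudocount of 1 and no filter). The members' median was 0.60 and 0.33 with limma and pseudocounts of 0.1 and 1. It was 0.60 without sham replicate 3, with a range of 0.44 to 0.60 without 1 pool. The homeostatic median of 0.47 was 0.21 with limma and a pseudocount of 1 and 0.71 with no filter, and ranged from 0.32 to 0.69 without 1 pool. The activation median of 0.76 was 0.41 with limma and a pseudocount of 1 and ranged from 0.51 to 0.95 without 1 pool. The intron readout called 0 members in every setting. The 227 DEGs among all genes (113 higher) became 350 with the scaling of RPKM (263 higher), 349 with total gene reads, 147 with limma and a pseudocount of 1, and 51 with glmTreat, and ranged from 154 to 358 without 1 pool. With the replicate number as a block, 4 members were DEGs and 5 had an adjusted p under 0.1, Cd68 being lost (adjusted p = 0.163), and 222 DEGs were called among all genes. Deviations of same-numbered pools correlated at -0.0591 to 0.007, so the pools share only a number and no pairing was assumed. DESeq2's Wald test called 4 members as DEGs (Itgam, Cd68, Lcp1 and Tlr2) and gave Chi3l3 no adjusted p. The causes of the other differences between settings were not tested. Low read numbers limit most members, whose intervals span a change of 1.5-fold in either direction for several of them.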
